A study of Mus musculus with 9 samples.

Results

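Prl2c5 encodes a proliferin, a secreted hormone of the mouse prolactin family. The gene was represented by 1 probe set (10403579), which carried this symbol alone, and was set beside the other 2 probe sets annotated to the Prl2c subfamily. The array table held 25668 probe sets in all, and 19661 genes had a probe set with a single symbol. The gene was chosen by its measured differences from control, which were among the largest in these data, so these are given as descriptions without a test.

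Cultured myoblasts, the dividing precursors of skeletal muscle fibres, came from mouse skeletal muscle of Balb/c background. There were 3 arrays of cells overexpressing Pax7, 3 of cells overexpressing Pax3 and 3 of cells with an empty vector (control). The sample titles call the last group CTAP Control, and do not explain CTAP or name it for the other groups. Every group received the same culture medium, Ham's F10, to which 20% serum and bFGF (4 ng/ml) had been added. Pax3 and Pax7 are related transcription factors with a paired domain and a homeodomain, both used by muscle precursors. How the constructs were introduced, and whether a group was a clone or a pool, is not given in the sources used here. Nor do the labels say whether the 3 samples of a group were separate cultures, so the p-values speak only of the variation among these samples, which may be technical.

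Proliferins are made in large amounts by the trophoblast giant cells of the mouse placenta, where they promote the growth of maternal blood vessels. They were also found as messages that serum and growth factors induce in mouse fibroblast lines, and they bind the mannose 6-phosphate/Igf2 receptor. In cultured mouse muscle cells, forced proliferin expression has been reported to hold back muscle-specific genes. Prl2c2, Prl2c3 and Prl2c5 are close copies, so a probe designed for any of them can take up signal from the others.

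The start regions of the proliferin genes show how close the copies are. The 250 bases before the start of Prl2c5 (chr13:13182466-13182715, plus strand, build GRCm38.p6, RefSeq) are shown with those of Prl2c3 (chr13:12800080-12800329, minus strand). Those of Prl7d1, the gene of proliferin-related protein (chr13:27716738-27716987, minus strand), are shown because its values moved in the same direction as those of Prl2c5. Capitals in the first sequence mark bases that differ from Prl2c3, and capitals in the other sequences mark bases that differ from Prl2c5 within the aligned stretch, the extra base of a gap included. Bases beyond the aligned stretch at either end are in lower case.
Prl2c5: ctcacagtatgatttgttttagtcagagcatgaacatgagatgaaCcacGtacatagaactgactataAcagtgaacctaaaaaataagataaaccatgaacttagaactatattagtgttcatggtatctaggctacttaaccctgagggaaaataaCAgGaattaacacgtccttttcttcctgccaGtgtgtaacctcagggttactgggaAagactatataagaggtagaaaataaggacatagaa
Prl2c3: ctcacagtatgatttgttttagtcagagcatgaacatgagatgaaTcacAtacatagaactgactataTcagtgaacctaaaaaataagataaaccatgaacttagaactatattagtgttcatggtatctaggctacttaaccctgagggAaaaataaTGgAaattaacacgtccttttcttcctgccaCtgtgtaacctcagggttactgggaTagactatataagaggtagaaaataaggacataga
Prl7d1: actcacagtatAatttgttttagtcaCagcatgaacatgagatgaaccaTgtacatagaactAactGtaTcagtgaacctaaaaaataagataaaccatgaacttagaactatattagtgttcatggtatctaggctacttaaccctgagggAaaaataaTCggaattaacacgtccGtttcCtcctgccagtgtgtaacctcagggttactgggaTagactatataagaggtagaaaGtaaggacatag

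Over 250 aligned positions, Prl2c5 and Prl2c3 were identical at 241 (96.4%), with 8 substitutions and 1 gap base. Prl2c5 and Prl7d1 were identical at 236 of 249 positions (94.8%), with 12 substitutions and 1 gap base. Of the 239 distinct 12-base words before the start of Prl2c5, 168 occurred before Prl2c3, and 127 and 126 before the 2 listed starts of Prl7d1. Among the 32851 start regions in the RefSeq table, none of another gene shared more than 5 of them. RefSeq lists Prl7d1 with 2 starts that lie 1 base apart, and the first listed, which shared 126 words, is shown and aligned. Starts of Prl2c2 and Prl2c1 were not analysed here.

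Motifs were searched on both strands of these windows. The letters TATATAA, as in the box near many gene starts, a motif chosen after the sequences were seen, occurred 1 time before each of Prl2c5, Prl2c3 and Prl7d1, and in 3.04% of all start regions. GATAA, the core letters of GATA factor sites, also occurred 1 time in each, against 22.6% of all regions with a match. ATTA, the core of homeodomain sites such as those of Pax3 and Pax7, occurred 2 times before Prl2c5, 3 times before Prl2c3 and 4 times before Prl7d1, and was present in 54.9% of all regions. TGACTCA (AP-1, 4.46% of all regions) and GTCACGC (paired domain, 1.78%) had 0 matches in the 3 windows. The palindromic homeodomain dimer motifs with spacers of 2 bases (0.38% of all regions) and 3 bases (0.46%), which contain ATTA, had 0 matches too.

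The arrays were checked against their labels with the overexpressed and sex-linked genes. Pax3 averaged 6.82 in Pax7, 11.05 in Pax3 and 5.83 in control arrays, and Pax7 averaged 12.28 in Pax7, 8.18 in Pax3 and 10.51 in control arrays (log2). Xist, the RNA of the inactive X chromosome, averaged 11.72 in Pax7, 11.96 in Pax3 and 4.77 in control arrays. The Y-linked genes Eif2s3y and Uty averaged 3.08 and 3.77 in Pax7, 3.12 and 3.85 in Pax3, and 8.78 and 9.27 in control arrays. In the comparisons against control, overexpression and this sex-linked difference between the cells therefore cannot be told apart, for Prl2c5 as for every other gene. Array medians lay between 6.40 and 6.48, and r between arrays of the same group was 0.9971 to 0.999 (across probe sets, not independent of each other).

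Prl2c5 had log2 intensities of 10.97, 10.98 and 11.00 in Pax7 arrays, 10.36, 10.31 and 10.40 in Pax3 arrays, and 3.60, 4.29 and 4.16 in control arrays. All 6 overexpressing arrays lay far above all 3 control arrays, and the Pax7 arrays lay above the Pax3 arrays. Means were 10.98 ± 0.015 in Pax7, 10.36 ± 0.0416 in Pax3 and 4.02 ± 0.368 in control arrays (SD, n = 3 each). Control replicate 1 lay below the other 2 control arrays and set most of the control SD.

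Against control, Prl2c5 was 125-fold higher in Pax7 arrays (log2 difference 6.97 ± 0.141, SE) and 81.0-fold higher in Pax3 arrays (6.34 ± 0.141, SE). Ranked from the largest rise over all 25668 probe sets, it stood at place 2 for Pax7 against control and place 3 for Pax3 against control. Whether the control level lay above background was not tested, because the deposited values carry no detection call. In bulk RNA, more expressing cells and more message per cell cannot be told apart.

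The probe set annotated jointly to Prl2c2, Prl2c3 and Prl2c4 (10407797) gave the same picture with a tighter control group. Its log2 intensities were 11.00, 11.12 and 11.15 in Pax7 arrays, 10.43, 10.48 and 10.40 in Pax3 arrays, and 3.36, 3.46 and 3.37 in control arrays. Against control, the joint probe set was 207-fold higher in Pax7 arrays (7.70 ± 0.0528, SE) and 132-fold higher in Pax3 arrays (7.04 ± 0.0528, SE). These differences held place 1 and place 2 in the same rankings. Its control values lie in the range of the Y-linked genes Eif2s3y and Uty on the Pax7 and Pax3 arrays (3.07 to 3.91), so the control level is not distinguished from background and neither fold nor place is exact. Which of the near-identical genes gave the signal of either probe set was not tested. The current RefSeq table lists the name Prl2c4 as a synonym of Prl2c3.

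Prl2c1, the remaining relative, had a far smaller difference. Its log2 intensities were 5.03, 5.12 and 5.59 in Pax7 arrays, 5.03, 5.30 and 5.02 in Pax3 arrays, and 4.77, 4.86 and 4.73 in control arrays. The differences from control were 0.46 ± 0.131 for Pax7 and 0.33 ± 0.131 for Pax3 (log2, SE), and the Pax7 and Pax3 arrays overlapped. In RefSeq order Prl2c1 lies inside the large prolactin cluster of chromosome 13, whereas Prl2c2, Prl2c3 and Prl2c5 lie together at a distance, with 174 protein-coding genes between Prl2c5 and the first cluster gene Prl.

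**Figure D1:**
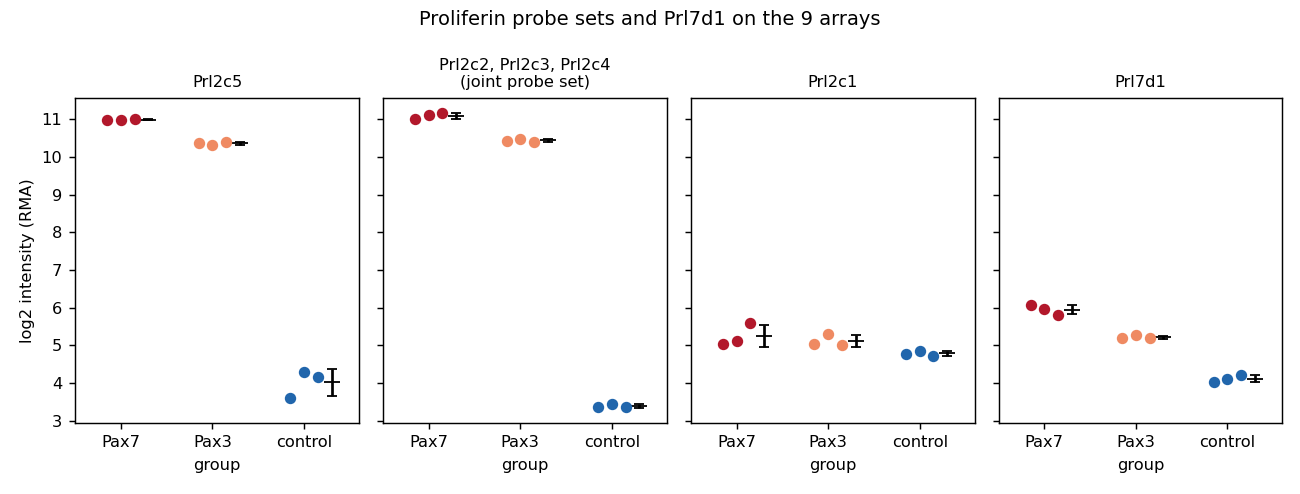
Log2 intensity (vertical axis) of the 3 Prl2c probe sets and of Prl7d1 on each of the 9 arrays. Points are arrays and black bars are the mean ± SD of 3 arrays. The Prl2c5 and joint probe sets lie at 10.31 or more on all Pax7 and Pax3 arrays and at 4.29 or less on control arrays.

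The comparison of Pax7 with Pax3 arrays was not the contrast for which the gene was chosen, and it was tested. Prl2c5 was 1.55-fold higher in Pax7 arrays (log2 difference 0.63 ± 0.141, SE, 95% interval 0.32 to 0.94, limma adjusted p = 0.0135), and its groups did not overlap. By comparison, 6.49% of all probe sets were called higher in Pax7 than in Pax3 arrays. The joint probe set was 1.57-fold higher (0.65 ± 0.0528, 95% interval 0.54 to 0.77, limma adjusted p = 1.8e-05), and Prl2c1 differed by 0.13 ± 0.131 (95% interval -0.16 to 0.42, adjusted p = 0.641). For Prl2c5 the call ended without Pax3 replicate 1 (adjusted p = 0.05002) or without Pax7 replicate 3 (adjusted p = 0.0523). With the Pax7 and Pax3 arrays fitted on their own, which leaves the spread of the control arrays out of the error, it was adjusted p = 0.000138.

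Among the other measured prolactin family genes, Prl7d1 had the largest difference in all 3 comparisons. This gene encodes proliferin-related protein, a placental hormone known to restrain blood vessel growth, in contrast to proliferin. Its log2 intensities were 6.06, 5.96 and 5.82 in Pax7 arrays, 5.20, 5.27 and 5.19 in Pax3 arrays, and 4.03, 4.10 and 4.22 in control arrays. The 3 groups did not overlap, in the order seen for Prl2c5. Prl7d1 rose 3.55-fold in Pax7 against control (1.83 ± 0.0690, SE, limma adjusted p = 6.67e-09), 2.15-fold in Pax3 against control (1.10 ± 0.0690, adjusted p = 4.86e-07) and 1.65-fold in Pax7 against Pax3 (0.72 ± 0.0690, adjusted p = 5.54e-05). Whether proliferin transcripts contributed to the Prl7d1 probe set was not tested.

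The list of prolactin family genes outside Prl2c had 22 entries, of which 18 were measured. In Pax7 against control 2 rose, 0 fell and 16 were not past the threshold, and the median difference was 0.04 (log2). In Pax3 against control 4 rose, 0 fell and 14 were not past it, and the median was 0.01. Over all probe sets, 18.7% were called higher in Pax7 and 17.2% in Pax3 than in control. The 2 of 18 prolactins in Pax7 are a smaller share than that, and the 4 of 18 in Pax3 lie near it. With 1 probe set a gene, as in the list, 4093 of 19661 genes rose in Pax7 and 3767 in Pax3. Prl3d3, a placental lactogen of giant cells, rose by 0.39 ± 0.133 in Pax7 and by 0.66 ± 0.133 in Pax3 against control (limma adjusted p = 0.0404 and 0.00255), the Pax7 call holding in 8 of 15 alternatives (adjusted p 0.00427 to 0.157). Pituitary prolactin Prl rose by 0.42 ± 0.0952 in Pax3 (adjusted p = 0.00511) and Prl7a1 by 0.27 ± 0.0722 in Pax3 (adjusted p = 0.014), the last not without control replicate 2 or Pax3 replicate 1 (adjusted p up to 0.0609). Prl had the same value, 4.60, on all 3 Pax7 arrays. Leaving out Prl7d1, the 17 others had log2 intensities of 2.58 to 5.25 in Pax7, 2.66 to 5.09 in Pax3 and 2.66 to 4.90 in control arrays.

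Of the 10 measured genes nearest to Prl2c5 on chromosome 13, 3 rose by 1 log2 unit or more in both comparisons against control. Gpr137b-ps and Gpr137b, a transcribed pseudogene and its lysosomal membrane protein gene, are the nearest measured genes on either side of the proliferin copies, and Nid1, the basement membrane protein nidogen 1, follows. All 3 rose in Pax7 and Pax3 against control, and all 3 rose in Pax7 against Pax3. Gpr137b-ps and Gpr137b are close copies that can share signal.

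Gpr137b-ps had log2 intensities of 10.86, 10.93 and 10.88 in Pax7 arrays, 10.44, 10.44 and 10.43 in Pax3 arrays, and 7.51, 7.67 and 7.53 in control arrays. Its differences were 3.32 ± 0.0494 for Pax7 against control and 2.87 ± 0.0494 for Pax3 against control (SE, limma adjusted p = 1.25e-11 and 5.26e-11). Gpr137b had 10.91, 10.92 and 10.88 in Pax7 arrays, 10.40, 10.42 and 10.40 in Pax3 arrays, and 8.70, 8.89 and 8.79 in control arrays. As for Prl2c5, the 3 groups of either gene did not overlap and the Pax7 arrays were the highest. Gpr137b differed by 2.11 ± 0.0515 for Pax7 and 1.61 ± 0.0515 for Pax3 against control (adjusted p = 3.01e-10 and 3.48e-09). Nid1 had 10.13, 10.11 and 10.08 in Pax7 arrays, 9.69, 9.72 and 9.62 in Pax3 arrays, and 8.60, 8.63 and 8.72 in control arrays. The Nid1 differences were 1.46 ± 0.0475 and 1.03 ± 0.0475 (adjusted p = 2.18e-09 and 5.11e-08). In Pax7 against Pax3 arrays, Gpr137b-ps, Gpr137b and Nid1 were higher by 0.46, 0.50 and 0.43 (limma adjusted p of at most 0.000152).

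The remaining genes among the 10 nearest had smaller differences from control. Of the 10 nearest measured genes, 5 on each side, 5 rose, 0 fell and 5 did not pass in Pax7 against control, and 7 rose, 0 fell and 3 did not pass in Pax3 against control, beside 18.7% and 17.2% of all probe sets called higher. Their median log2 differences were 0.26 and 0.40, against 0.03 and 0.02 over all genes. B3galnt2, a glycosyltransferase gene, rose by 0.61 ± 0.0480 in Pax7 and 0.60 ± 0.0480 in Pax3 (limma adjusted p = 2.28e-06 and 3.16e-06). Edaradd, an adaptor of the ectodysplasin receptor, rose in Pax7 (0.40 ± 0.0467, adjusted p = 4.69e-05) and was at 0.00 in Pax3 against control. Lgals8, the sugar-binding galectin 8, rose in Pax3 (0.45 ± 0.0415, adjusted p = 9.57e-06) and was at 0.04 in Pax7. Lyst, a regulator of lysosome traffic, rose in Pax3 (0.35 ± 0.0934, adjusted p = 0.0138) but not without Pax3 replicate 1 or 2 (adjusted p up to 0.0614). Heatr1, a ribosome production factor, rose by 0.20 ± 0.0523 in Pax3 (adjusted p = 0.0121), but not without control replicate 2 (adjusted p = 0.0507). Ero1b and Gng4 passed in neither comparison, with differences of 0.07 to 0.13. In Pax7 against Pax3 arrays, 4 of the 10 rose, 2 fell and 4 did not pass, with a median of 0.0. Over all probe sets, 6.49% were called higher and 6.81% lower. Besides the 3 genes above, Edaradd was higher by 0.40 (limma adjusted p = 0.000224). Lgals8 (-0.41, adjusted p = 8.71e-05) and Lyst (-0.36, adjusted p = 0.027) were lower, the Lyst call holding in 11 of 16 alternatives.

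**Figure D2:**
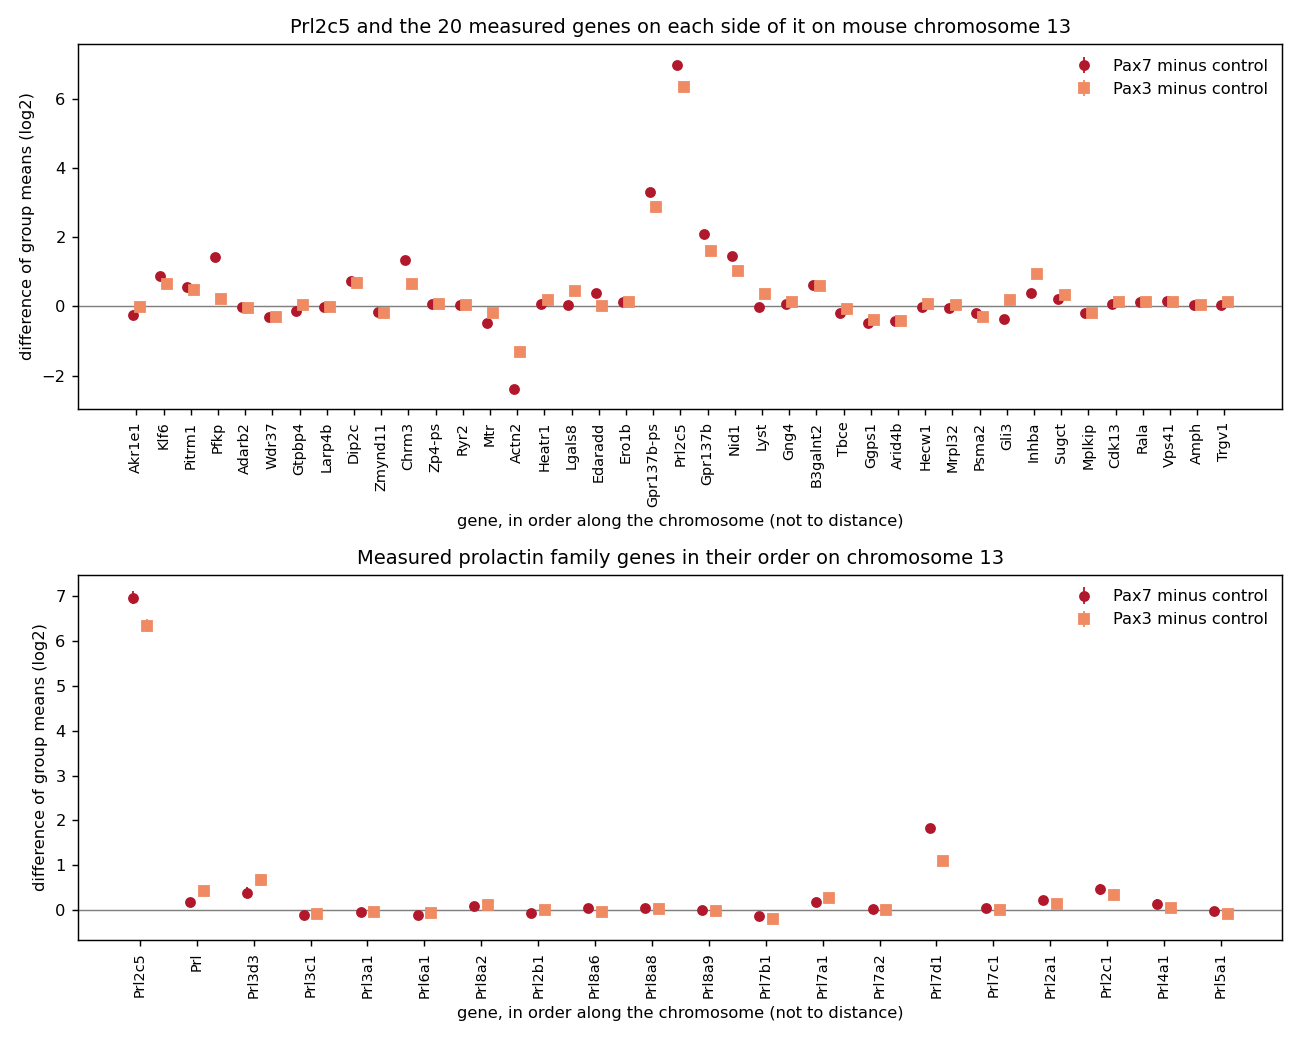
Differences of group means (log2, vertical axis; bars are SE) for Pax7 against control (circles) and Pax3 against control (squares), with genes in chromosome order. The upper panel has Prl2c5 and 20 measured genes on each side, and the lower panel the measured prolactin family genes: Prl2c5 stands highest in both, with Gpr137b-ps, Gpr137b and Nid1 beside it and Prl7d1 at 1.83 and 1.10 in the cluster.

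Most markers of the placental trophoblast, the tissue that normally makes proliferin, did not pass the test. Of 20 measured trophoblast markers, 1 rose, 2 fell and 17 did not pass in Pax7 against control, and 0 rose, 2 fell and 18 did not pass in Pax3 against control. Over all probe sets 37.8% and 34.2% were called in these comparisons, larger shares than in the list. Their summed log2 intensity was 97.0 to 97.2 in Pax7, 97.5 to 98.5 in Pax3 and 99.1 to 100.3 in control arrays. Without Peg10 and Cdkn1c the sum of the other 18 was 79.9 to 80.6 in Pax7, 79.4 to 80.4 in Pax3 and 78.9 to 80.1 in control arrays, so these 2 genes carried the lower total. Tpbpa, the spongiotrophoblast marker, averaged 3.35 in Pax7, 3.37 in Pax3 and 3.30 in control arrays. Those that fell were the imprinted genes Peg10 (-2.22 ± 0.0873 in Pax7 and -1.08 ± 0.0873 in Pax3) and Cdkn1c (-1.16 ± 0.0783 and -1.15 ± 0.0783), with limma adjusted p of at most 3.48e-06, and both are also used outside the placenta. Cts8, a placental cathepsin, rose by 0.15 ± 0.0467 in Pax7 (adjusted p = 0.0289), a call that held in 10 of 15 alternatives (adjusted p 0.0159 to 0.108).

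Of 12 transcription factors and regulators of the trophoblast, 3 rose, 2 fell and 7 did not pass in Pax7 against control, and 4 rose, 1 fell and 7 did not pass in Pax3 against control. These shares lie near the 37.8% and 34.2% called over all probe sets. Eomes, a T-box factor of trophoblast stem cells, rose by 1.06 ± 0.0721 in Pax7 and 0.36 ± 0.0721 in Pax3 (limma adjusted p = 6.6e-07 and 0.00269), and was 0.71 higher in Pax7 than in Pax3 (adjusted p = 8.84e-05). Plet1 rose by 1.00 ± 0.0757 and 1.05 ± 0.0757 (adjusted p = 1.57e-06 and 1.42e-06). Tfap2a fell (-0.52 in Pax7 and -0.35 in Pax3, adjusted p = 4.92e-05 and 0.00115), and Gata3 fell in Pax7 (-0.43, adjusted p = 0.000233) and was at 0.11 in Pax3.

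Proliferin transcription in fibroblasts is known to respond to AP-1, a dimer of Jun and Fos family proteins, together with the glucocorticoid receptor. Of 11 such genes, 4 rose, 4 fell and 3 did not pass in Pax7 against control, and 3 rose, 4 fell and 4 did not pass in Pax3 against control. Either share exceeded the 37.8% and 34.2% of probe sets called in these comparisons. Jun had log2 intensities of 9.86, 9.81 and 9.86 in Pax7 arrays, 10.28, 10.30 and 10.23 in Pax3 arrays, and 11.60, 11.58 and 11.60 in control arrays. It was lower in every overexpressing array, with differences of -1.75 ± 0.0400 in Pax7 and -1.32 ± 0.0400 in Pax3 (log2, SE, limma adjusted p = 1.93e-10 and 2.23e-09).

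Junb (-0.82 in Pax7 and -0.92 in Pax3) and Fos (-0.58 in Pax7 and -0.76 in Pax3) fell against control (limma adjusted p of at most 1.32e-05). Fosl1, the Fos family member Fra-1, went the other way, with 10.53, 10.50 and 10.48 in Pax7 arrays, 10.48, 10.49 and 10.48 in Pax3 arrays, and 9.37, 9.31 and 9.47 in control arrays. Fosl1 rose by 1.12 ± 0.0475 and 1.10 ± 0.0475 (adjusted p = 1.64e-08 and 2.96e-08). The glucocorticoid receptor gene Nr3c1 rose by 0.70 ± 0.0494 in Pax7 and 0.32 ± 0.0494 in Pax3 (adjusted p = 8.98e-07 and 0.000396), and was 0.38 higher in Pax7 than in Pax3 (adjusted p = 0.000496).

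Prolactin and growth hormone act through receptors that signal by JAK2 and STAT5. The list of 8 genes drawn up for this group also took in Igf2r, which binds proliferin. The prolactin receptor gene Prlr was in the list but was not measured. Of the 7 measured genes, 6 rose and 1 fell in Pax7 against control, and 5 rose, 1 fell and 1 did not pass in Pax3 against control. Over all probe sets 18.7% and 17.2% were called higher, and the median log2 difference of the 7 was 0.52 in Pax7 and 0.39 in Pax3. The Pax7 call of the kinase gene Jak2 (0.23, adjusted p = 0.0371) held in 9 of 16 alternatives and was lost without any 1 of the Pax7 or control arrays (adjusted p up to 0.111). Socs2, a feedback inhibitor induced by STAT5, had 8.37, 8.40 and 8.38 in Pax7 arrays, 8.69, 8.74 and 8.67 in Pax3 arrays, and 6.96, 6.95 and 6.89 in control arrays. Unlike Prl2c5, Socs2 was highest in Pax3 arrays: it rose by 1.45 ± 0.0412 in Pax7 and 1.77 ± 0.0412 in Pax3 (limma adjusted p = 8.17e-10 and 3.82e-10), and its difference of Pax7 from Pax3 was -0.32 (adjusted p = 0.000461). The growth hormone receptor Ghr rose by 0.83 and 0.79, Stat5b by 0.66 and 0.52, and the STAT5 target Cish by 0.52 and 0.38 (adjusted p of at most 0.00256). Igf2r, the receptor that binds proliferin, fell (-0.27 ± 0.0446 in Pax7 and -0.24 ± 0.0446 in Pax3, adjusted p = 0.000628 and 0.00169).

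Most muscle genes fell in both comparisons against control. Myod1 and desmin (Des), which mark myoblasts, averaged 12.18 and 10.80 in Pax7, 12.50 and 11.62 in Pax3, and 12.62 and 12.13 in control arrays. Both were thus bright in every group, though no level for presence was set. Myod1 fell in Pax7 against control (-0.43, limma adjusted p = 1.51e-05) and was at -0.12 in Pax3 (adjusted p = 0.0628). Desmin fell in both (-1.33 in Pax7 and -0.52 in Pax3, adjusted p = 1.73e-09 and 3.56e-06). Of 16 muscle genes, 2 rose and 14 fell in Pax7 against control, and 2 rose, 13 fell and 1 did not pass in Pax3 against control. The list includes Srf, Id1, Id2 and Id3, which are not restricted to muscle and fell in both comparisons. The Pax7 call of Id3 (-0.24, limma adjusted p = 0.0221) held in 12 of 16 alternatives. Over all probe sets, 19.1% were called lower in Pax7 and 17.0% in Pax3. Myh3, the embryonic myosin heavy chain, fell (-3.31 ± 0.0950 in Pax7 and -2.05 ± 0.0950 in Pax3), as did muscle creatine kinase Ckm (-3.28 ± 0.0466 and -2.80 ± 0.0466). Cardiac actin Actc1 (-2.93 ± 0.106 and -1.53 ± 0.106) and the differentiation factor Mef2c (-2.48 ± 0.0917 and -1.29 ± 0.0917) fell too (limma adjusted p of at most 1.28e-06 for these 4 genes). The 2 that rose were the myogenic factors Myf5, by 2.02 ± 0.0562 in Pax7 and 1.97 ± 0.0562 in Pax3 (adjusted p = 7.33e-10 and 1.43e-09), and Myf6, by 0.41 ± 0.139 and 0.51 ± 0.139 (adjusted p = 0.038 and 0.0157). The Myf6 calls were lost in 4 of 16 alternatives for Pax7, among them without control replicate 1 and without Pax7 replicate 1 or 2, and without Pax3 replicate 2 for Pax3 (adjusted p up to 0.139 and 0.0632). In Pax7 against Pax3 arrays, 0 of the 16 rose and 9 fell, against 6.81% of all probe sets called lower.

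The 10 fibroblast markers gave 1 rise and 2 falls in each comparison against control, with 7 not past, which is near the 37.8% and 34.2% called over all probe sets. In Pax7 against Pax3, where 13.3% of all probe sets were called, 3 of the 10 fibroblast markers, 3 of 11 AP-1 and glucocorticoid receptor genes, 1 of 7 receptor genes, 2 of 12 trophoblast factors, 1 of 20 trophoblast markers and 1 of 18 prolactins were called. Periostin Postn (-3.58 in Pax7 and -2.58 in Pax3) and the collagen Col3a1 (-0.88 and -0.26) fell (limma adjusted p of at most 0.00191), while Pdgfra rose by 0.58 and 0.42 (adjusted p = 0.000222 and 0.00222).

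**Figure D3:**
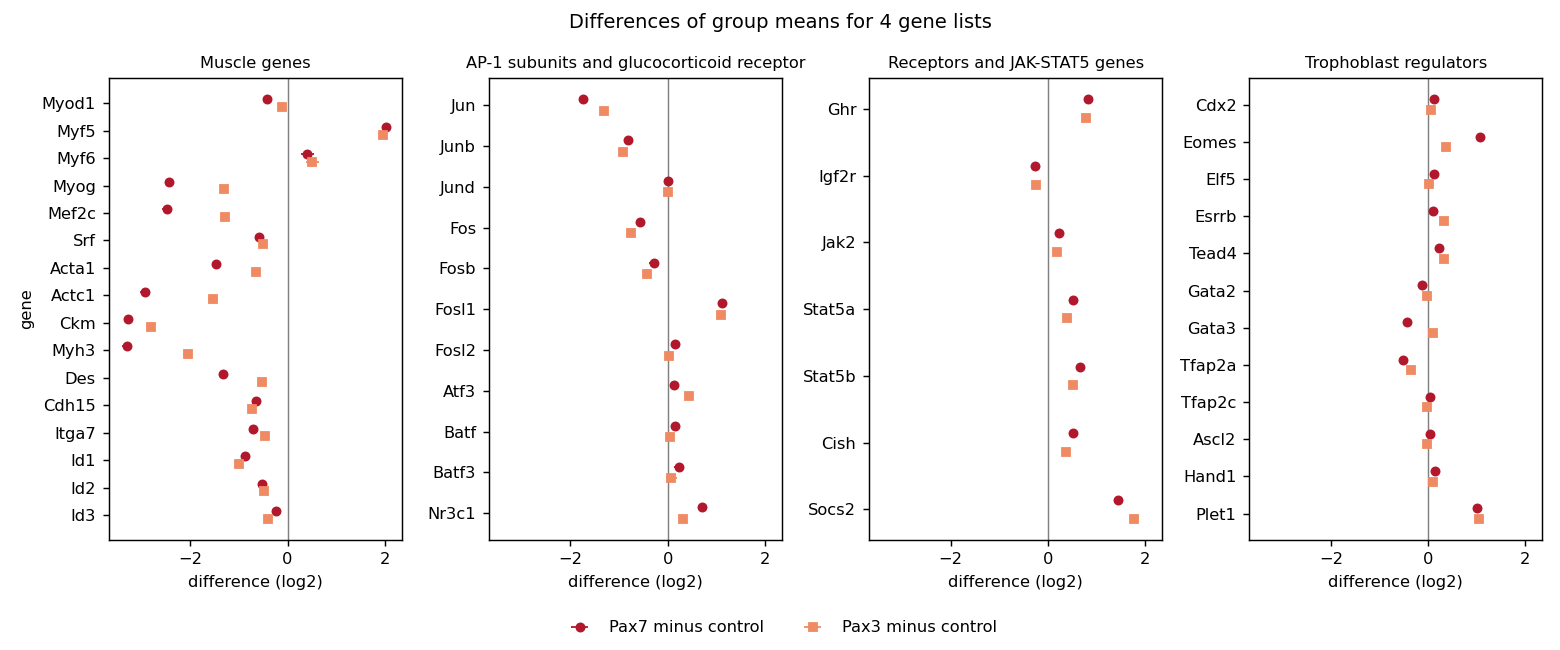
Differences of group means (log2, horizontal axis; bars are SE) of 4 gene lists for Pax7 against control (circles) and Pax3 against control (squares). Jun, Junb and Fos lie left of 0 and Fosl1 right of it, Socs2 has the largest positive difference of the receptor list, and Myh3 and Ckm lie farthest left among muscle genes.

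The profile of Prl2c5 over the 9 arrays was shared by many genes. Of 488 genes whose log2 values spanned at least 2 units, 61 correlated with it above r = 0.99 and 83 below r = -0.99. The 9 points share the arrays and the split into 3 groups, with control far from the others, so these correlations are descriptions. Highest were Pcbd1, a cofactor recycling enzyme (r = 0.9991), Ppp1r16b, a phosphatase regulatory subunit (0.9990), the desmosome gene Dsp (0.9988), adenylate kinase Ak5 (0.9987) and the metalloproteinase Mmp28 (0.9986). The joint Prl2c probe set stood at r = 0.9986.

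By the size of the profile, measured as the root mean square difference of centred log2 values, Xist was the closest gene (0.43), followed by the neurofilament Nefl (0.60), the integrin Itga2 (0.86), Epb41l4a (0.93) and Dsp (0.94). The joint probe set was closer than any of these, at 0.37. Of these 5 genes, Epb41l4a was higher in Pax7 than in Pax3 arrays by a similar amount to Prl2c5, 0.52 ± 0.0476 against 0.63 ± 0.141 (log2, SE). Xist differed by -0.24 ± 0.0651 in that comparison.

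**Figure D4:**
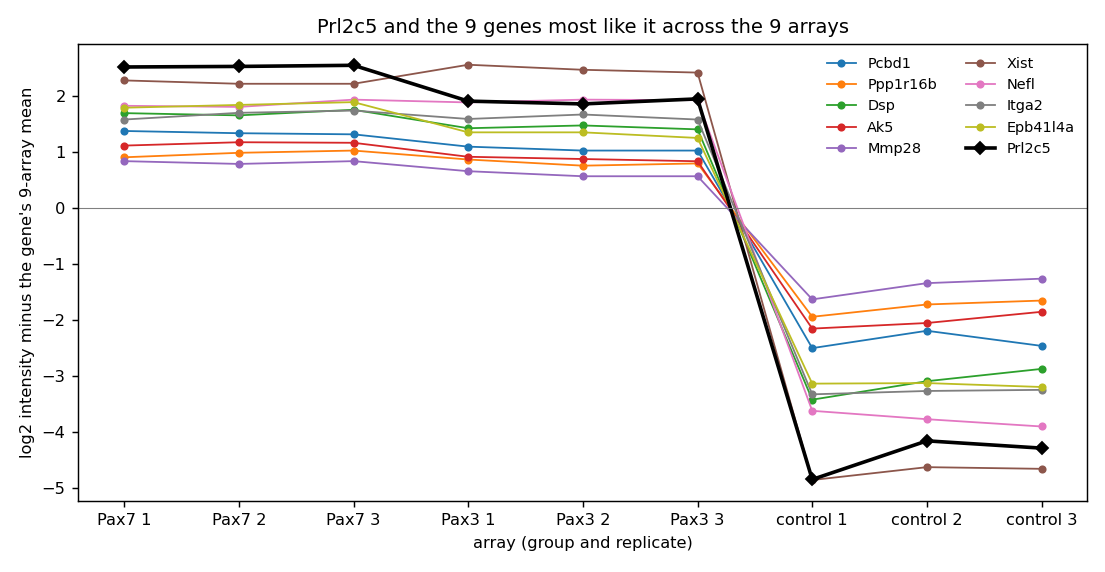
Log2 intensity of each gene minus its own mean over the 9 arrays (vertical axis), by array (horizontal axis), for Prl2c5 in black and the 9 genes chosen as most like it. All 10 drop on the 3 control arrays, and Prl2c5 and Xist span the widest range.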

How the data were processed

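Total RNA was labelled with biotin by the Affymetrix protocol, per the labels' protocols, and measured on 9 arrays. The authors deposited log2 intensities per probe set, made with RMA in R 2.10.0 per the submitters' processing notes; RMA subtracts background, quantile-normalises and summarises probes, which compresses low values. The sources used here name no build, annotation version or filter. All 9 columns were used. Symbols came from the platform annotation (20777 probe sets with 1 symbol, 232 with several, 4659 with none), and gene order and start regions from RefSeq for GRCm38.p6. The number of arrays limits the precision.

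A linear model with 1 mean per group was fitted to all 25668 probe sets in limma 3.58.1 (R 4.3.3, residual df 6, prior df 3.95), because a table of 1 probe set a gene would lose the joint Prl2c probe set. Calls have a Benjamini-Hochberg adjusted p under 0.05. It was tested on simulated data with known changes. Lists used the probe set with the highest mean per gene, whereas the shares beside them are over all probe sets. Over the 19661 genes taken that way, 41.8% were called in Pax7 against control and 38.2% in Pax3 against control. In Pax7 against Pax3, 15.4% were. Start regions were aligned with Biopython 1.88.

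The gene, the lists and the tests were chosen with earlier results of these data known. Named were the Prl2c probe sets, up to 4 called members per list with the largest change, 5 genes by r and 5 by profile distance, the 5 nearest measured genes on each side, and Pax3, Pax7, Xist, Eif2s3y and Uty. Igf2r, Nr3c1, Tpbpa, Myod1, Des, Myf5, Myf6, Srf, Id1, Id2, Id3, Jak2, Actn2, Chrm3 and Pfkp were named after their values were seen. Alternatives were a replicate block, 1 probe set a gene, median centring, quantile normalisation, a trended robust prior, a filter on dim probe sets, each array left out and only the groups compared.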

Additional observations from a re-analysis of the deposited data

How the results depend on the processing

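The differences of Prl2c5 kept their direction in all 3 comparisons under all 16 alternatives. Counted as unchanged were 46 of these values. Against control this required a shift below the pooled SD within groups. For Pax7 against Pax3 it required the same side of the threshold. Leaving out each array in turn, the log2 difference was 6.758 to 7.104 for Pax7 against control, 6.129 to 6.475 for Pax3 against control and 0.607 to 0.649 for Pax7 against Pax3 (limma adjusted p 4.501e-05 to 0.0523). The last was not past the threshold without Pax3 replicate 1 (0.63, adjusted p = 0.05002) or without Pax7 replicate 3 (0.62, adjusted p = 0.0523); fewer arrays were fitted there. With the replicate number as a block, the difference between Pax7 and Pax3 was 0.63 (adjusted p = 0.01063), and 3409 probe sets were called in place of 3414. No clear pairing by number was seen. Deviations of same-numbered arrays in different groups correlated at -0.0185 to 0.228, and those of different-numbered arrays at -0.239 to 0.208. Of 9 arrays, 3 correlated best with their own number. With 3 arrays per group, this check cannot decide whether a weak pairing existed. Of 336 list counts, 318 stayed within 1.5 times the reported count. The filter that dropped the dimmer 50% of probe sets removed all 18 measured prolactin genes outside Prl2c, so none of these prolactin genes was tested there. Without control replicate 1, 4 of them were called in Pax7 against control, and the AP-1 list had 5 calls in place of 8 in that comparison without Pax7 replicate 1. Signals near the bottom of the range limit what can be said of the dim prolactin genes.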

Other observations

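In a wider window of 40 measured genes, 20 on each side of Prl2c5, 12 rose, 9 fell and 19 did not pass in Pax7 against control, and 16 rose, 7 fell and 17 did not pass in Pax3 against control. Over all probe sets 18.7% were called higher and 19.1% lower in Pax7, and 17.2% higher and 17.0% lower in Pax3, so the falls lie close to the share over all probe sets. Beyond the 10 nearest genes, 3 genes chosen after their values were seen stood out by size. Pfkp, the platelet-type phosphofructokinase of glycolysis, rose by 1.42 ± 0.0782 in Pax7 against control (log2, SE, limma adjusted p = 1.26e-07) and differed by 0.21 ± 0.0782 in Pax3 against control (adjusted p = 0.0645). It was 1.21 higher in Pax7 than in Pax3 arrays (adjusted p = 4.06e-06). Chrm3, a muscarinic acetylcholine receptor, rose by 1.33 ± 0.109 in Pax7 and 0.66 ± 0.109 in Pax3 against control (adjusted p = 2.97e-06 and 0.000701). Actn2, the sarcomeric alpha-actinin of muscle, fell (-2.40 ± 0.0819 in Pax7 and -1.32 ± 0.0819 in Pax3 against control, adjusted p = 3.17e-09 and 4.5e-07).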
